A study of Mus musculus with 6 samples.

Results

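The forebrain patterning transcription factors described here are Pax6, Six3, Lhx2, Otx1, Otx2, Emx1, Emx2, Eomes and Tbr1. They were taken from the arrays by gene name, and these 9 genes of 37001 on the array were represented by 20 of 56583 probes. Their messenger RNA was measured in 6 teratomas, tumours of mixed tissues that mouse embryonic stem cells (mESCs) form under the skin of a host that cannot reject them. The hosts were BALB/c nude mice, which lack a thymus and so most T cells but keep natural killer cells. The mice were randomised to 2 groups of 3, and each array holds a different mouse's tumour. The control tumours received a miRNA negative control and the others a mimic of miR-124a-3p, in both groups as complexes with "Atelogen QG" injected into the tumour. Injections of 15 µg in 100 µL began about 10 days after implantation, at a tumour size of at least 100 mm3, and were repeated every 3 days to day 28. Each tumour was cut in 2 and the RNA was taken from 1 piece, so tissue in the other piece was not sampled. The name and genotype of the mESC line and the age of the mice are not given in the sources used here.

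Forebrain tissue arises from the anterior neural plate under the control of homeodomain and T-box transcription factors. Six3 and the Otx factors set up the anterior plate and the eye field, and Pax6, Lhx2, Emx1 and Emx2 then give the dorsal telencephalon its identity as future cortex. In developing cortex, excitatory neurons pass through a sequence in which Pax6 marks radial glia, Eomes (Tbr2) the intermediate progenitors and Tbr1 the young neurons. Neurons hold much miR-124, and Lhx2 is known from neural tissue as a target of it. The comparison asked how gene expression in the tumours differed with the mimic.

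Each value below is the log2 of a probe's processed intensity minus the 75th percentile of its array, so 0 is that percentile and a difference of 1 is a doubling. The 75th percentile lay between 197.8 and 223.1 intensity units, and 63.4% to 65.9% of probes were well above background on an array. No spot was saturated (0 on every array). All arrays shared 1 slide, with the controls in row 1 and the miR-124a tumours in row 2, so treatment and slide row cannot be told apart. The tumours are mixtures, and fewer cells of a type and less RNA per cell cannot be told apart either.

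Of the 9 factors, 8 were well above background on all 6 arrays and were tested, and Otx1 was not well above background on any. None of the 8 passed the threshold of an adjusted p under 0.05 (0 called by limma with Benjamini-Hochberg adjustment over 22946 genes), where 3.18% of all tested genes did, 0.501% on the higher and 2.68% on the lower side. At an unadjusted p under 0.05 the count was 4 of 8, beside 27.1% of all tested genes. Mean signal was higher in the miR-124a tumours for 7 of the 8 and lower for Emx2, while 49.9% of all genes had a higher mean. The median log2 difference over the 8 was 0.50, and over all tested genes it was -0.00072. The groups did not overlap for Pax6, Lhx2 and Eomes, which were higher with the mimic, and for Emx2, which was lower. These are 4 of 8 genes, beside 35.4% of all tested genes, 15.1% on the higher and 20.2% on the lower side.

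**Figure D1:**
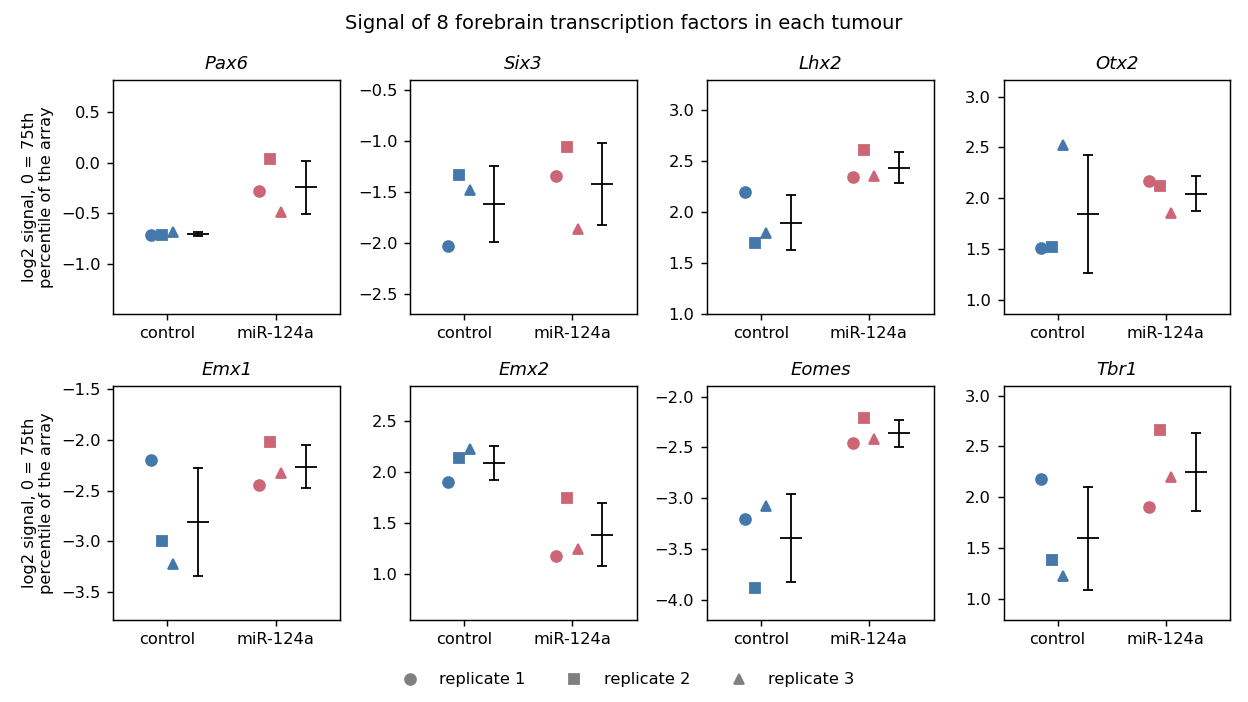
Log2 signal of the 8 tested forebrain factors, with 0 at the array's 75th percentile, in 3 control and 3 miR-124a tumours. Each symbol is a tumour, the bar beside it is the group mean with its SD (n = 3), and every panel spans the same height. The miR-124a symbols lie wholly above the controls for Pax6, Lhx2 and Eomes and wholly below them for Emx2.

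**Figure D2:**
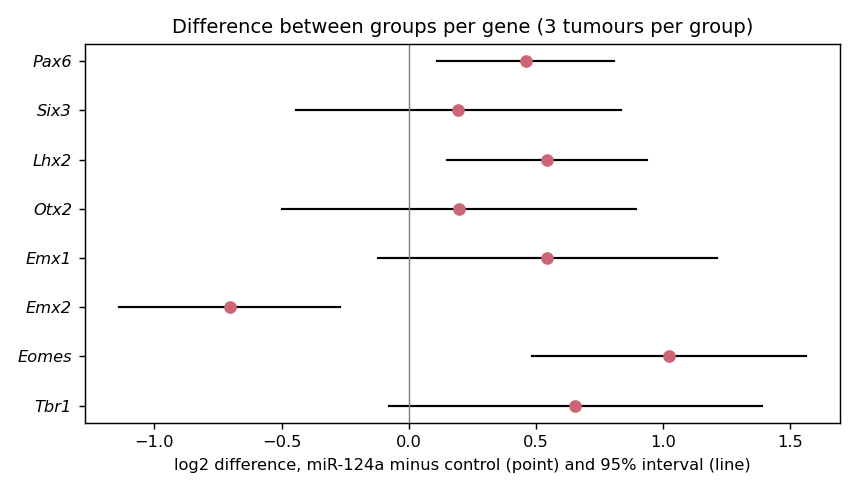
Log2 difference, miR-124a minus control, of the 8 factors (points) with its 95% interval from limma (lines), 3 tumours per group. The intervals of Pax6, Lhx2 and Eomes lie above 0 and that of Emx2 below it, and those of Six3, Otx2, Emx1 and Tbr1 include 0; these intervals are not adjusted for the number of genes.

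Six3, a homeodomain factor of the anterior neural plate and eye field, was read by a probe at chr17:86023349-86023408 (mm9, the build of the array annotation). Its log2 signal was -2.03, -1.33 and -1.48 in control 1 to 3 and -1.34, -1.06 and -1.86 in miR-124a 1 to 3. The groups overlapped, with the lowest value in control 1 and the highest in miR-124a 2. The difference was 0.20 ± 0.26 (SE, n = 3 per group), with a 95% interval of -0.44 to 0.84 (limma adjusted p = 0.661). Without control 1 the difference was -0.02, so its direction rested on that tumour. The 2 other probes of Six3, at chr17:86021546-86021605 and chr17:86030070-86030129, were not well above background on any array.

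Otx1 and Otx2 are closely related homeodomain factors of the forebrain and midbrain. The Otx1 probe and a probe of Otx2 are shown because they share a run of 14 bases, given in capitals, at bases 13 to 26 of the Otx1 probe and 47 to 60 of the Otx2 probe. They lie at chr11:21898391-21898450 and chr14:49281026-49281085 (mm9, minus strand).
Otx1: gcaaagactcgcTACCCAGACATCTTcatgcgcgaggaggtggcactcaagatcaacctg
Otx2: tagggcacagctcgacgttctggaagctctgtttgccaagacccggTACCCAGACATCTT

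Otx1 signal was -7.15, -6.98 and -7.05 in control 1 to 3 and -6.86, -6.75 and -7.01 in miR-124a 1 to 3. The lowest signal of any probe well above background lay between -5.09 and -4.80 on these arrays, so Otx1 was below the range that could be measured in every tumour and no difference is given.

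Otx2 was well above background on all 6 arrays at each of its 3 probes. The brightest, at chr14:49277855-49277914, gave 1.51, 1.52 and 2.52 in control 1 to 3 and 2.17, 2.12 and 1.85 in miR-124a 1 to 3. Control 3 was the highest tumour of all and the other controls the lowest, so the groups overlapped. The difference was 0.20 ± 0.29 (SE), with an interval of -0.50 to 0.89 (limma adjusted p = 0.684). It was 0.53 without control 3 and 0.03 without control 1, a wider range than the difference itself.

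The other probes of Otx2 were highest in the same tumour of each group. At the Otx2 probe shown above the values were -2.63, -2.81 and -1.82 in the controls and -1.90, -2.28 and -2.28 with the mimic. At chr14:49284952-49285011 they were -3.32, -3.64 and -2.95 and then -2.88, -3.37 and -3.33. Control 3 was thus the highest control and miR-124a 1 the highest miR-124a tumour at all 3 probes. Their differences were 0.26 ± 0.27 and 0.11 ± 0.22 (SE).

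Otx2 is also made in the early embryo, the pigment epithelium and the choroid plexus, and markers of these were read beside it. Over 9 tested of 10 early embryo and mesendoderm markers, the median signal relative to the control mean was highest in the same tumours as Otx2, at 0.51 in control 3 and 0.50 in miR-124a 1, and lay between -0.33 and -0.06 in the other 4. Control 3 and miR-124a 1 also led their groups in the ventral forebrain, midbrain to spinal cord, patterning signal, cofactor and neural precursor lists described below. The remaining lists did not have both highest. Over all 22946 tested genes, deviations from the group mean had an r of 0.34 between them, the highest of such pairs. The summed scaled signal of the early embryo markers was 5.62 to 12.3 in the controls and 8.04 to 11.8 with the mimic. Foxa2, also in the midbrain to spinal cord list, made up 22.6% to 42.0% of it and Dnmt3b 21.7% to 39.3%. Mixl1 was below background on all arrays. Gsc was well above background on 3 control arrays and 1 miR-124a array, and no difference is given for it. Smallest in p among those above background on all arrays was Lhx1 (0.74, limma adjusted p = 0.222), which is also in the diencephalon list. Next were Nanog (-0.20, limma adjusted p = 0.262) and Pou5f1 (-0.24, adjusted p = 0.519).

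Of 10 pigment epithelium markers 5 were tested, with a median difference of -0.07, and Tyr, Tyrp1, Rpe65 and Lrat were below background on all arrays. Dct gave -0.25 (limma adjusted p = 0.368), Pmel -0.21 (adjusted p = 0.559), Best1 -0.07 (adjusted p = 0.769) and Rlbp1 0.08 (adjusted p = 0.856). The 8 choroid plexus markers had a median difference of 0.11, which was -0.13 without miR-124a 2. Their summed scaled signal, 46.4% to 72.0% of it from Ttr, reached 66.6 in miR-124a 2 and lay between 30.5 and 38.2 in the other tumours. The transthyretin gene Ttr, abundant in choroid plexus, gave 0.15 (limma adjusted p = 0.853), Prlr 0.30 (adjusted p = 0.388), Folr1 0.20 (adjusted p = 0.517) and Aqp1 0.15 (adjusted p = 0.629). None of the early embryo, pigment epithelium or choroid plexus markers was called (0 by limma, and 0 at an unadjusted p under 0.05), and their part in the Otx2 values was not tested.

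Lhx2, a LIM-homeodomain factor that makes the dorsal telencephalon cortex rather than its border tissues, was read at chr2:38224933-38224992. Its signal was 2.20, 1.69 and 1.79 in control 1 to 3 and 2.34, 2.61 and 2.35 in miR-124a 1 to 3. Every miR-124a tumour was above every control, and control 1 was the nearest to them. The difference was 0.54 ± 0.16 (SE), or 1.46-fold higher, with an interval of 0.15 to 0.94 (limma adjusted p = 0.108). The mean for this known target of miR-124 was on the higher side in tumours given the mimic, short of the threshold.

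Emx1 and Emx2 are a pair of related homeodomain factors of the dorsal telencephalon, Emx1 restricted largely to the cortical lineage and Emx2 also made in other organs such as the urogenital system. Emx1, at chr6:85154062-85154121, gave -2.20, -3.00 and -3.22 in control 1 to 3 and -2.44, -2.02 and -2.33 in miR-124a 1 to 3. Control 1 lay inside the miR-124a values and the other controls below all of them. Its difference was 0.54 ± 0.28 (SE), with an interval of -0.12 to 1.21 (limma adjusted p = 0.255). It was 0.85 without control 1 and 0.34 without control 3. It was 0.20 with normexp background correction and quantile scaling together, and 0.52 with quantile scaling alone. The offset of 50 units added with normexp shrinks the log2 differences of dim probes, and the processed intensity here was 22.2 to 51.4 units.

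Emx2, at chr19:59539650-59539709, was the 1 factor with lower signal in the miR-124a tumours. It gave 1.90, 2.14 and 2.22 in control 1 to 3 and 1.17, 1.74 and 1.24 in miR-124a 1 to 3. The groups did not overlap, and the nearest tumours were control 1 and miR-124a 2. The difference was -0.70 ± 0.18 (SE), which is 1.63-fold lower, with an interval of -1.14 to -0.27 (limma adjusted p = 0.0834).

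The difference of Emx1 minus Emx2 within a tumour, set to 0 at the control mean, was examined after these values had been seen. It was 0.79, -0.25 and -0.55 in control 1 to 3 and 1.29, 1.13 and 1.33 in miR-124a 1 to 3. All miR-124a tumours lay above all controls, by 1.25 on average (exact two-sided permutation p = 0.1, the smallest that 3 against 3 allows). Emx2 was already lower without overlap and Emx1 higher in mean, so this separation follows largely from the choice of the pair. It adds no support to the values above, and the share of other gene pairs that separate so was not counted. With normexp background correction and quantile scaling of the same arrays the difference was 0.86, also without overlap.

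Pax6 is a paired-box and homeodomain factor of the eye, the dorsal telencephalon and the endocrine pancreas. Its messenger is spliced in alternative forms, of which one carries an extra exon, 5a, that lengthens the paired domain and alters its binding to DNA. The array carries a probe across the junction into that exon and a probe across the junction that skips it. They are shown because they tell the forms apart, and the capitals mark the 10 bases of the upstream exon that both contain. Both leave that exon at position 105524115 of chromosome 2 (mm9, plus strand); the one goes on at 105524908 for 42 bases and the other at 105525044 for 50 bases.
Pax6, exon included: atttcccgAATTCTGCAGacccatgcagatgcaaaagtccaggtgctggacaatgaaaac
Pax6, exon skipped: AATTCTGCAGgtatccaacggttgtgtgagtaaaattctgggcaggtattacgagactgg

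The brightest Pax6 probe, at chr2:105537277-105537336, lies nearest the gene's 3′ end of its 6 probes and does not separate the forms. It gave -0.71, -0.71 and -0.68 in control 1 to 3 and -0.28, 0.04 and -0.49 in miR-124a 1 to 3. The controls were nearly equal (-0.70 ± 0.016, SD, n = 3), the miR-124a tumours were spread (-0.24 ± 0.26, SD, n = 3), and the groups did not overlap. The difference was 0.46 ± 0.14 (SE), or 1.37-fold higher, with an interval of 0.11 to 0.81 (limma adjusted p = 0.117). A further junction probe, at chr2:105535591-105536463, also did not overlap between groups, at -2.56, -2.78 and -2.72 and then -2.39, -2.03 and -2.37. Its difference was 0.42 ± 0.13 (SE; limma adjusted p = 0.125 over 35719 probes, of which 2.72% were called).

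The probe for the skipped form was well above background on 1 of 3 control and 3 of 3 miR-124a arrays. Its values were -3.70, -5.20 and -4.81 in the controls and -3.89, -3.31 and -4.70 with the mimic, and the groups overlapped. It was tested only because all 3 miR-124a arrays were above background, and controls below it have no measured level, so no difference is given. The probe for the form with the exon was not well above background on any array. It read -6.19, -6.59 and -7.25 in the controls and -5.89, -5.31 and -6.42 with the mimic, all under the range that could be measured. A change in the balance of the forms was therefore not measurable here. Of the last pair of Pax6 probes, the one at chr2:105524641-105524700 was well above background on 1 control and 2 miR-124a arrays, and the one at chr2:105523175-105523234 on none.

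Pancreatic endocrine cells and the lens and retina also make Pax6. Of 12 endocrine markers 9 were tested, 6 with a higher and 3 with a lower mean, with a median difference of 0.43. Their summed scaled signal was 25.2 to 41.0 in the controls and 42.4 to 51.4 with the mimic. Sst, which neurons also make, was 39.4% to 57.5% of it, and the sum of the others overlapped (14.9 to 20.1 and 19.1 to 27.8). The median of the 9 tested markers relative to the control mean was highest in miR-124a 2 (0.66), as for Pax6. Of all tested genes, 40% had that tumour highest of the 3 miR-124a tumours. The marker that passed the test was Isl1, also a ventral forebrain gene, which fell by 1.06 on the log2 scale (SE 0.16, limma adjusted p = 0.0357), a call lost when any of the 6 tumours was left out (limma adjusted p = 0.0653 to 0.127). The insulin gene Ins2 gave 0.67 (limma adjusted p = 0.109), the hormone protease gene Pcsk2 0.37 (adjusted p = 0.154) and the somatostatin gene Sst 0.70 (adjusted p = 0.168), and Ppy was below background on all arrays. The glucagon gene Gcg, chosen after its values were seen, gave -0.70 without overlap (limma adjusted p = 0.19).

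Of 13 lens and retina markers 8 were tested and 0 called (limma; 1 lower at an unadjusted p under 0.05), 5 with a higher and 3 with a lower mean, and Crygs was below background on all arrays. Their median difference was 0.30, and -0.01 without miR-124a 2. Their summed scaled signal was 32.9 to 47.3 in the controls and 19.7 to 25.5 with the mimic. Cryab alone made up 49.6% to 89.5% of it, and the sum of the others was 4.93 to 8.78 and 8.78 to 10.1. The lower sum with the mimic thus rested on Cryab and is no reading of lens or retina as a whole. The crystallin gene Cryab gave -1.40 (limma adjusted p = 0.0545), Pou4f1 0.52 (adjusted p = 0.21), Crx -0.20 (adjusted p = 0.26) and Atoh7 0.26 (adjusted p = 0.406). The part of these cells in the Pax6 values was not tested.

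**Figure D3:**
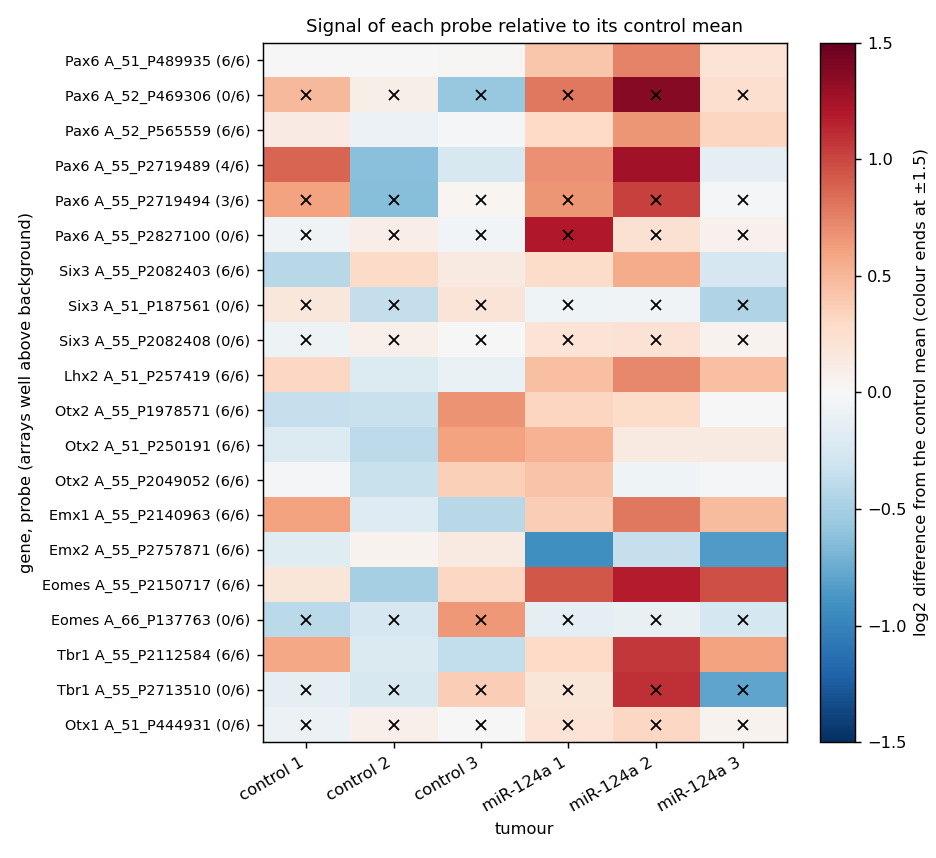
All 20 probes of the 9 factors (rows) in the 6 tumours (columns), as log2 signal minus the control mean of that probe, from blue (lower) to red (higher). The label gives the number of arrays out of 6 on which a probe was well above background, and crosses mark probes that were not tested. Of the 12 tested probes, the Emx2 probe is the one that is blue in all 3 miR-124a tumours.

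Eomes, a T-box factor of the intermediate progenitors of cortex, had the largest difference of the 8 on this scale. Its probe, at chr9:118394425-118394484, gave -3.20, -3.88 and -3.08 in control 1 to 3 and -2.46, -2.21 and -2.42 in miR-124a 1 to 3. All miR-124a tumours were above all controls. The difference was 1.02 ± 0.22 (SE), or 2.03-fold higher, with an interval of 0.49 to 1.56 (limma adjusted p = 0.0653).

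The call for Eomes depended on the processing. With a variance trend and robust estimation the difference of 1.02 had a limma adjusted p of 0.0488, and with normexp background correction and quantile scaling together it was 0.32 with an adjusted p of 0.0469. In that last setting it was smaller in size than Lhx2 (0.52), Emx2 (-0.66) and Tbr1 (0.67). The offset of 50 units in that setting is larger than the processed intensity of this probe. It shrinks the log2 differences of dim probes more than those of bright ones, so this order is no ranking of the factors. Quantile scaling alone gave 0.99 (limma adjusted p = 0.0529). With trend and robust estimation 6.92% of all genes were called, and with normexp and quantile scaling 6.64%. The probe was dim: its processed intensity was 13.4 to 24.5 in the controls and 39.1 to 45.3 with the mimic, where the lowest signal well above background was 5.82 to 7.58 units. The other Eomes probe, a junction probe spanning chr9:118390460-118391121, was not well above background on any array.

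Eomes is also made by natural killer and T cells, by trophoblast and by early mesendoderm. Of 12 natural killer and T cell markers 7 were tested and 0 called (limma; 0 at an unadjusted p under 0.05). The median difference was 0.24, and became -0.04 when control 2 was left out, -0.10 for miR-124a 3 and 0.49 for control 1. The markers' summed scaled signal was 2.77 to 4.38 in the controls and 4.04 to 4.73 with the mimic. Klrb1c alone made up 59.8% to 82.1% of it, and the sum of the others overlapped (1.00 to 1.36 and 0.849 to 1.77). Ncr1, Cd3g and Cd8a were below background on all arrays. The natural killer receptor gene Klrb1c gave 0.48 (limma adjusted p = 0.254), Cd3e -0.27 (adjusted p = 0.375), the related T-box gene Tbx21 -0.29 (adjusted p = 0.411) and Prf1 0.13 (adjusted p = 0.419). Of 8 trophoblast markers 6 were tested and 0 called (limma; 2 higher at an unadjusted p under 0.05), with a median difference of 0.42. Their summed scaled signal was 64.0 to 87.1 in the controls and 95.1 to 111.5 with the mimic, but Gcm1 alone made up 94.9% to 98.8% of it, and the sum of the others overlapped (0.976 to 3.12 and 1.16 to 5.71). Psg17 was below background on all arrays. Ascl2 gave 0.42 (limma adjusted p = 0.124), Gcm1 0.43 (adjusted p = 0.14), Tpbpa 1.17 (adjusted p = 0.202) and Tfap2c 0.30 (adjusted p = 0.342). The part of these cells in the Eomes values was not tested.

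Tbr1, the T-box factor of young deep-layer cortical neurons, was read at chr2:61652093-61652152. It gave 2.18, 1.38 and 1.23 in control 1 to 3 and 1.90, 2.66 and 2.20 in miR-124a 1 to 3. Control 1 lay between the miR-124a tumours and the other controls below them. The difference was 0.65 ± 0.30 (SE), or 1.57-fold higher, with an interval of -0.08 to 1.39 (limma adjusted p = 0.221). A Tbr1 probe near the start of the transcript, at chr2:61642556-61642615, was not well above background on any array.

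Tbr1 minus Eomes within a tumour, also examined after the values had been seen, was 0.39, 0.28 and -0.67 in the controls and -0.62, -0.11 and -0.37 with the mimic. The groups overlapped, and the difference of -0.37 (exact two-sided permutation p = 0.4) became 0.34 with normexp correction and quantile scaling (p = 0.3, same test). That setting adds 50 units, beside processed intensities of 13.4 to 45.3 for Eomes and 487 to 1323 for Tbr1, and so shrinks the Eomes difference more. No shift of Tbr1 against Eomes was thus resolved with 3 tumours per group.

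Several factors ordered the tumours alike within groups, as did many other genes. Tumour miR-124a 2 had the highest signal of its group for 7 of the 8 factors, Otx2 being the exception, and 40% of all tested genes had it highest too. Control 1 was the highest control for Lhx2, Emx1 and Tbr1, as it was for 27.9% of all genes. The median of the 8 factors relative to the control mean was 0.09, -0.20 and 0.07 in control 1 to 3 and 0.35, 0.73 and 0.34 in miR-124a 1 to 3.

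The genes whose log2 signal followed each factor most closely over the 6 tumours were taken from 15820 other tested genes by Pearson's r. With so many genes and 6 tumours that share treatment, slide row and tissue makeup, values near 1 are what such a search returns, and they are given as a description. Tbr1 had 285 genes with r above 0.95, the most of the 8, led by the neural adhesion molecule Ncam2 (0.999) and the potassium channel gene Kcnma1 (0.997). Lhx2 had 234, led by Nostrin (0.999) and Septin3 (0.997). Emx1 had 194, led by Zfp459 (0.999) and Actr3b (0.999). Pax6 had 178, led by the muscarinic receptor gene Chrm5 (0.998) and Zic5 (0.994).

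Eomes had 172 such genes, led by Lrp1b (0.995) and Arid4a (0.994). Fewer genes followed the other 3 factors that closely. Emx2 had 56, led by Golt1b (0.992) and Aprt (0.991), Otx2 had 47, led by Zfp263 (0.993) and Mdc1 (0.989), and Six3 had 10, led by Pars2 (0.998) and Tsn (0.995).

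Other genes of forebrain patterning were read from lists, described by counts and medians alone. All 21 further factors of dorsal forebrain and cortex were tested, and 0 were called (limma), with 7 higher and 0 lower at an unadjusted p under 0.05. With normexp and quantile scaling 3 were called, where 6.64% of all tested genes were. With trend and robust estimation 1 was called, where 6.92% of all tested genes were. At an unadjusted p under 0.05 lay 27.1% of all tested genes, counting both directions (limma). Of all 21 dorsal factors, 20 had a higher mean with the mimic, 6 of them without overlap. Cux1 had a lower mean, also without overlap. Over all tested genes 15.1% were higher without overlap and 20.2% lower. The median difference of the 21 was 0.37, beside 0.50 for the 8 factors above. Smallest in p were Cux2, an upper-layer factor (0.63, limma adjusted p = 0.0759), Nr2f1, a factor of caudal cortex (0.35, adjusted p = 0.0844), Bhlhe22 (0.70, adjusted p = 0.0897) and Bcl11b, a deep-layer factor (0.44, adjusted p = 0.0914).

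Factors of neighbouring regions were divided. Of 18 ventral forebrain and hypothalamus factors 15 were tested, 9 higher and 6 lower, with a median difference of 0.18 that was -0.21 without control 1 and 0.01 without miR-124a 1. Isl1, named above, was the 1 that passed the test, and the next were Lhx8 (-1.01, adjusted p = 0.314), Dlx5 (0.38, adjusted p = 0.334) and Dlx1 (0.37, adjusted p = 0.352) (limma). All 16 diencephalon factors were tested, 9 higher and 7 lower with 0 called (limma; 2 higher and 2 lower at an unadjusted p under 0.05), and their median was 0.19. It was -0.08 without control 1, -0.01 without miR-124a 2 and 0.43 without control 3.

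Of the diencephalon factors Irx3 gave -0.74 (limma adjusted p = 0.0547) and Gbx2 0.87 (adjusted p = 0.138). Of 23 midbrain, hindbrain and spinal cord factors 18 were tested, 11 higher and 7 lower, with a median of 0.16 (-0.03 without miR-124a 1 and 0.46 without control 3), and En1, Pax8, Hoxb1 and Atoh1 were below background on all arrays. Pax7, which is also the gene of muscle stem cells, fell by 1.94 (SE 0.25, limma adjusted p = 0.0243), a call lost when any tumour but miR-124a 3 was left out (limma adjusted p = 0.0536 to 0.109). Pax3 (0.46, limma adjusted p = 0.106) and Lbx1 (-0.55, adjusted p = 0.161) were not called, and Pax5 was well above background only on the 3 control arrays, so no difference is given for it.

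The signals that divide the neural tube, and the proteins that bind the factors, were called in no case. Of 19 patterning signals and antagonists 17 were tested and 0 called (limma; 0 higher and 3 lower at an unadjusted p under 0.05), with a median of 0.12. It was -0.08 without control 2, -0.10 without miR-124a 1 and 0.29 without control 3. The antagonist Nog (-0.61, limma adjusted p = 0.0789), Bmp4 (-0.80, adjusted p = 0.0945), Chrd (-0.30, adjusted p = 0.142) and Rspo2 (0.47, adjusted p = 0.209) were smallest in p. All 18 cofactors were tested and 0 called (limma; 5 higher and 1 lower at an unadjusted p under 0.05), with 13 higher, 5 lower and a median of 0.12. Meis2 (0.47, adjusted p = 0.0968), Lmo3 (0.55, adjusted p = 0.109), Ldb2, a partner of LIM-homeodomain factors such as Lhx2 (0.42, adjusted p = 0.113), and Pbx3 (0.61, adjusted p = 0.121) had the smallest p, and their groups did not overlap.

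**Figure D4:**
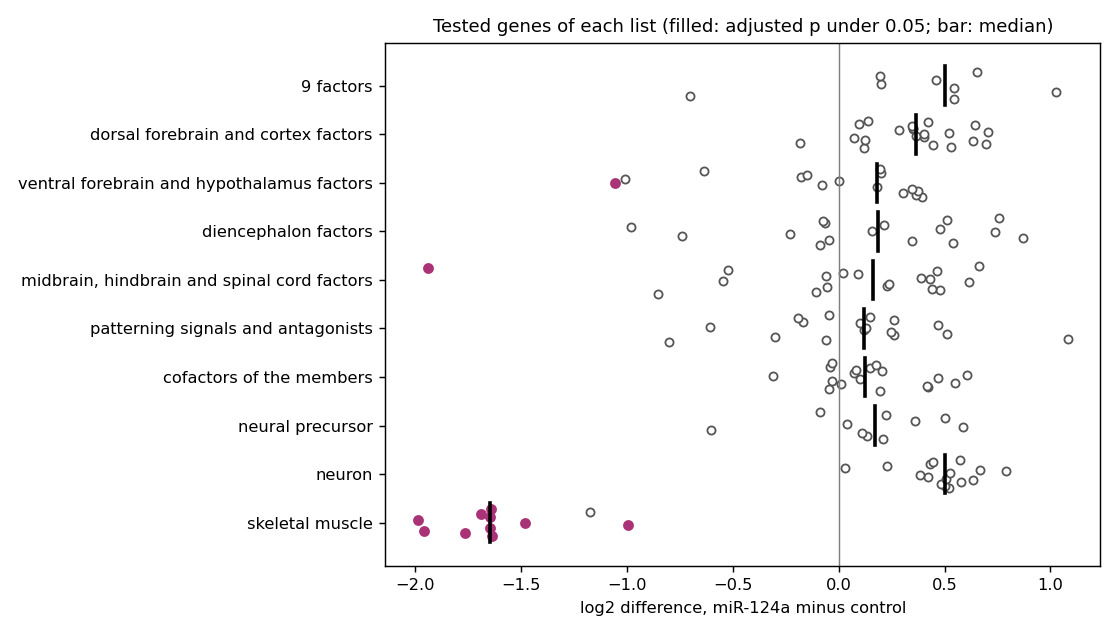
Log2 difference, miR-124a minus control, of each tested gene (points) in the forebrain factors (labelled 9 factors, of which 8 were tested) and 9 other lists, with the list's median as a bar and genes past the threshold filled. The median of the 8 factors is 0.50, that of the dorsal forebrain list 0.37 and that of the neuron list 0.50, and skeletal muscle stands apart at -1.65.

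Neuron markers, like most of the factors, had higher means with the mimic and did not pass the test. All 16 neuron markers had a higher mean with the mimic, 11 of them without overlap. Their median difference was 0.50, with 0 called (limma; 11 higher and 0 lower at an unadjusted p under 0.05). Over all tested genes 15.1% were higher without overlap, and 27.1% had an unadjusted p under 0.05 in either direction (limma). The count of called neuron markers was 3 with quantile scaling, 6 with normexp and quantile scaling and 4 with trend and robust estimation. Calls over all 22946 genes also rose in these settings, from 730 to 847, 1524 and 1588. In sum, the scaled signal of the neuron markers was 218.6 to 258.9 in the controls and 303.0 to 388.1 with the mimic. Tubb3 gave 0.58 (limma adjusted p = 0.0556), Elavl3 0.50 (adjusted p = 0.0832), Map2 0.42 (adjusted p = 0.0898) and Stmn2 0.43 (adjusted p = 0.0925). The median of these markers relative to the control mean was highest in miR-124a 2 (0.73), the tumour that was highest for 7 of the 8 factors. It was also the highest tumour for the pancreatic endocrine (0.66), choroid plexus (0.63), lens and retina (0.57), trophoblast (0.51) and diencephalon (0.26) lists. The dorsal forebrain list was highest in miR-124a 3 (0.43).

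Neural precursor markers were less uniform: all 10 were tested, 8 higher and 2 lower, with a median of 0.17 and 0 called (limma; 2 higher and 1 lower at an unadjusted p under 0.05). Nes, a filament gene, gave -0.60 (limma adjusted p = 0.0713), and which cells of the tumours made it was not tested. Pou3f2 gave 0.58 (limma adjusted p = 0.139), Slc1a3 0.36 (adjusted p = 0.159) and Sox1 0.50 (adjusted p = 0.228). The sum of their scaled signals was 99.2 to 110.9 in the controls and 114.0 to 122.4 with the mimic. Fabp7 made up 47.9% to 56.7% of it, and the sum of the others overlapped (48.4 to 53.9 and 53.0 to 59.8). Skeletal muscle markers differed most, with 10 of 11 tested genes lower past the threshold, a median of -1.65 and summed scaled signals of 841.3 to 1303.6 and 344.7 to 514.6. Myog (-1.65, limma adjusted p = 0.0184), Myod1 (-1.99, adjusted p = 0.022), Ryr1 (-1.69, adjusted p = 0.022) and Chrna1 (-1.77, adjusted p = 0.022) had the smallest p, and Myf5 was below background on all arrays. Of the 10 muscle calls, the count was 0 when control 1, control 2 or either of miR-124a 1 and 2 was left out, and 6 without control 3. The shares of neural and muscle tissue in a tumour piece were not measured by other means, and the part of these markers' differences in the values of the forebrain factors was not tested.

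**Figure D5:**
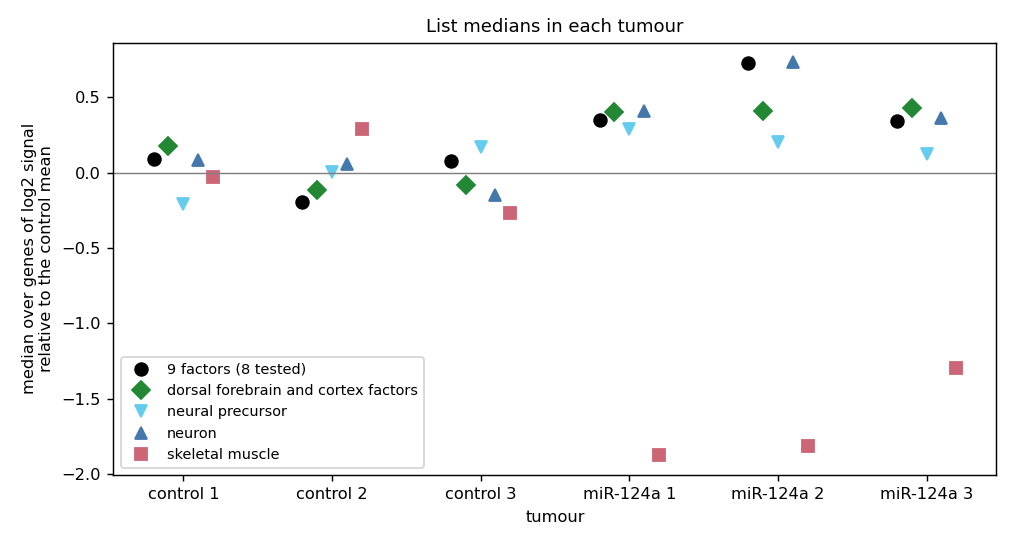
Median over the genes of a list of log2 signal minus the control mean, per tumour, for the forebrain factors, the further dorsal forebrain factors and the markers of neural precursors, neurons and skeletal muscle. The forebrain factors and the neuron markers are both highest in miR-124a 2 (0.73 for each). The further dorsal forebrain factors are highest in miR-124a 3 (0.43) and the neural precursor markers in miR-124a 1 (0.29). The skeletal muscle markers lie between -1.87 and -1.29 in the miR-124a tumours.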

How the data were processed

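Total RNA of 6 teratomas was measured on 1-colour Agilent arrays, per the labels. The deposited scanner files hold a processed intensity, background-corrected by Agilent Feature Extraction 11.5.1.1 per the file headers and submitters' processing notes, and unscaled between arrays. The log2 value table of the authors is the log2 of that intensity shifted by a constant per array (SD of the difference about 0.0029, column medians -2.98, -3.07, -2.98, -2.97, -2.99 and -2.98). It was not centred per gene, its direction is that of signal, and the tool behind it was not given in the sources used here.

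Control spots and 22 flagged probes were left out, and spots of the same probe were averaged. Each array's log2 intensities were scaled to its 75th percentile. Probes were tested where all 3 arrays of either group were well above background, and the brightest tested probe stands for a gene. Names came from accessions in the GRCm38.p6 RefSeq table (32979 probes), symbols (10223), older symbols (520) or the file (12861), and positions are mm9. The test was limma 3.58.1 under R 4.3.3 (lmFit, eBayes, no covariate), its p-values were adjusted over 22946 genes (Benjamini-Hochberg, threshold 0.05). The number of arrays limits precision. A summed scaled signal adds the intensities of a list's tested genes, each divided by the array's 75th percentile.

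The 9 factors, the 16 other lists and the tests were chosen with earlier results of these data known. All 9 factors are named, with the 4 genes smallest in p of each list and the 2 genes most like each factor; the genes below background on all arrays, Cux1 and Gcg were named after their values were seen. Some genes of the lists are not reported here by name. The alternatives were quantile scaling, normexp (offset 50) together with quantile scaling, the deposited table, no filter on dim probes, detection on all 6 arrays, averaging probes, a replicate block, variance trend with robust estimation, array weights and leaving out each tumour.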

Additional observations from a re-analysis of the deposited data

How the results depend on the processing

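Over 15 alternatives, Pax6 ranged from 0.31 to 0.58, Lhx2 from 0.44 to 0.70, Otx2 from 0.03 to 0.53, Emx1 from 0.20 to 0.85, Emx2 from -0.88 to -0.60, Eomes from 0.32 to 1.18 and Tbr1 from 0.45 to 0.95, each keeping its direction and, but for Eomes, staying short of the threshold. Eomes passed it with normexp background correction and quantile scaling together (0.32, limma adjusted p = 0.0469) and with trend and robust estimation (1.02, adjusted p = 0.0488), which made the count of called factors 1; its adjusted p ranged up to 0.196. Six3 turned to -0.015 without control 1 and ranged from there to 0.42 when a tumour was left out.

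Over all genes, 730 calls (15.8% of them higher) became 847 with quantile scaling alone (22.4%), 1524 with normexp and quantile scaling together (37.8%), 1588 with trend and robust estimation, 81 without a filter, and 0 to 365 when a tumour was left out. Leaving out control 1, 2 or 3 gave 12, 0 and 336, and leaving out miR-124a 1, 2 or 3 gave 1, 0 and 365; the counts of 0 had 4732 and 4076 genes at an unadjusted p under 0.05 (limma). Calls in the other lists went from 12 of 191 to 16 with quantile scaling alone, 26 with normexp and quantile scaling, 21 with trend and robust estimation and 1 without a filter, and to 0 to 12 when a tumour was left out. With the replicate block 0 genes and 0 list genes were called (4954 at an unadjusted p under 0.05). Same-numbered tumours deviated with r of -0.16, -0.04 and -0.06, so no pairing by number was seen, which does not exclude one. Isl1 and Pax7 also lost their calls without a filter on dim probes and with the block.

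The medians of the early embryo list (-0.15 without control 2) and of 7 other lists, given with them, changed sign when a tumour was left out. Lists without calls gained 1 with normexp and quantile scaling for diencephalon, neural precursor, trophoblast and lens and retina. The diencephalon list also had 1 with quantile scaling alone, trend and robust estimation, array weights and without miR-124a 3. Neural precursor markers also had 1 with trend and robust estimation and without control 3. Lens and retina markers also had 1 with trend and robust estimation, detection on all 6 arrays and without miR-124a 3. Of the marker genes, Rlbp1 turned to -0.069 with array weights and ranged from -0.12 to 0.32 when a tumour was left out, Ttr to -0.081 with array weights with a range of -0.39 to 0.43, Best1 ranged from -0.20 to 0.015 and Aqp1 from -0.017 to 0.27. The cause of these changes was not tested. Probes below background, among them Otx1 and the Pax6 probe for exon 5a, have no measurable difference here.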
